A study of Mus musculus with 8 samples.

Results

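Heat shock proteins are the genes described here, chosen by name: Hsph1, Hspa8, Hspa1b, Hsp90aa1, Hsp90ab1, Hspd1, Hspe1, Hspb1, Dnaja1 and Dnajb1. The array annotation gave a probe to 6 of these 10 members, among 17711 genes with a named probe in all, and 4 of the 6 had a probe bright enough to be tested. Hspa8, Hspa1b, Hsp90ab1 and Hspe1 have no probe under their names in the annotation used and were not analysed here. RNA was measured on Illumina bead arrays in epithelial cells cut from the surface (4 samples) and from the crypt base (4 samples) of the distal colon by laser capture microdissection. All were from male wild-type C57BL/6 mice aged 10 to 12 weeks with no treatment named in the labels, and each of 4 mice gave a sample of both kinds. Samples are called surface 1 to 4 and crypt base 1 to 4 after their labels, and those of 1 number are treated as a pair.

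Heat shock proteins are chaperones that keep other proteins folded, and most were named after their induction by heat through the factor Hsf1. In the cytosol, HSP70 proteins take up unfolded chains that J proteins such as Dnaja1 and Dnajb1 deliver, and the HSP110 protein Hsph1 exchanges their nucleotide. HSP90 proteins finish the folding of kinases and steroid receptors together with cochaperones. Hspd1 and Hspe1 form the folding chamber of the mitochondrial matrix, and Hspb1 is a small heat shock protein that holds unfolded chains and is abundant in muscle. In the colon the epithelium divides near the crypt base and matures as cells move to the surface.

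The regions carried the markers of their labels. All 7 surface colonocyte markers tested were higher at the surface and all 6 markers of crypt base and cycling cells were lower there, while the stem cell marker Lgr5 had no probe bright enough to test. General epithelial markers were also higher at the surface, 5 of 8 past the test, and their summed linear signal was 12975 to 14771 at the surface and 7696 to 10245 at the crypt base, without overlap. The part of this difference in the values of the heat shock genes was not tested. Markers of other cells were present in both regions, such as Acta2 of smooth muscle with mean log2 signals of 11.75 at the surface and 12.59 at the crypt base. Laptm5 of leukocytes had 11.27 and 11.46 and Dcn of fibroblasts 10.00 and 10.38 in the same order, whereas the leukocyte marker Ptprc stayed below background. Of 9 fibroblast markers tested, Col3a1 passed as higher at the surface (by 0.55 log2 units) and Thy1 as lower (-0.42). Summed linear signals of these lists overlapped between the regions. Fibroblast markers had 2623 to 3365 at the surface and 2321 to 3922 at the crypt base, and leukocyte markers 1683 to 5405 and 1788 to 4591. Endothelial markers had 1102 to 1347 and 919 to 1262, and of the 7 tested only Cldn5 passed, as lower at the surface (-0.63). In such bulk samples, fewer cells of a type and less RNA per cell cannot be told apart. Surface 4 stood apart, where 199 probes lay over 2 log2 units away from the median of the rest, against 6 to 34 on any other array.

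At the surface the mitochondrial chaperonin gene Hspd1 was 2.01-fold lower than at the crypt base and the HSP110 gene Hsph1 was 1.57-fold lower. Dnajb1 and Hspb1 did not pass the test, with changes of 0.26 and -0.72 on the log2 scale. Of the 4 members tested, 0 rose and 2 fell at an adjusted p under 0.05 in limma. Over all 9494 genes tested, 12.1% were higher and 10.1% lower at the surface by that rule. At an unadjusted p under 0.05 the member counts were 1 and 2, beside 18.2% and 18.3% of all genes. The median change was -0.68 over the 4 members and -0.01 over all genes tested, but 4 genes are few and the 6 others were not measured by this test.

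Promoters of the 4 members tested are printed to set their heat shock elements, the binding motif of Hsf1, beside the changes. Each is the RefSeq window of GRCm38.p6 from 250 bases before to 50 after an annotated start, 5′ to 3′ on the strand of the gene, with elements in capitals. An element was searched as GAANNTTC or TTCNNGAA, each of which is its own reverse complement. Where a gene has several starts, the one with the most elements, or the first listed, is shown. They lie at chr1:55087883-55088182 on the minus strand for Hspd1, chr5:149636287-149636586 on the minus strand for Hsph1, chr5:135887669-135887968 on the plus strand for Hspb1 and chr8:83607925-83608224 on the plus strand for Dnajb1.
Hspd1: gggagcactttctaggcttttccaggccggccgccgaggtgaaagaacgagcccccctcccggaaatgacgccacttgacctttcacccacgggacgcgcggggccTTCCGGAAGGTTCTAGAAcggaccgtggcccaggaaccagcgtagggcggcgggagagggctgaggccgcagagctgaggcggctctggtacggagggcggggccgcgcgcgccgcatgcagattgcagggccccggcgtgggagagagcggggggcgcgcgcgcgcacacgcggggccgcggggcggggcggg
Hsph1: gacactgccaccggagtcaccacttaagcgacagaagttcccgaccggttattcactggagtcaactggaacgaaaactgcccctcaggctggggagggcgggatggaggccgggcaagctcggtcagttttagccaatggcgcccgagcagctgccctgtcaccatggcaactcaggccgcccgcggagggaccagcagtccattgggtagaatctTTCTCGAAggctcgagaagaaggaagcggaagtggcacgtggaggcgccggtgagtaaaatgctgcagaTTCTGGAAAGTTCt
Hspb1: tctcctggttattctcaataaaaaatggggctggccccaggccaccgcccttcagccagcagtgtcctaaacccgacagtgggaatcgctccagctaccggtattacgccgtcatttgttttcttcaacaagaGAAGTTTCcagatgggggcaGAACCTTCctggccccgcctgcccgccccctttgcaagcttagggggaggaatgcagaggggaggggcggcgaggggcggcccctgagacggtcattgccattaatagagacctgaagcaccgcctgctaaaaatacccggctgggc
Dnajb1: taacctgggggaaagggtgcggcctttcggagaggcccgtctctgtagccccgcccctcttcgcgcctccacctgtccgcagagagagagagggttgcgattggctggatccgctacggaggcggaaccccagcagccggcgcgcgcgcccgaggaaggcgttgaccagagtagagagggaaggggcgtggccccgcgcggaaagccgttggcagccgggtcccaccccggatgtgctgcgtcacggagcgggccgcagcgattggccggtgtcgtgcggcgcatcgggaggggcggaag

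The Hspd1 window shown holds 3 overlapping elements that run together from base -144, and 2 of the 3-unit forms GAANNTTCNNGAA and TTCNNGAANNTTC, which contain the shorter ones. No element was found in the window of the other Hspd1 start. The Hspd1 window shown shares 285 bases with the window of Hspe1, its partner gene on the other strand, so both hold the same run. In the Hsph1 window 3 elements were found, 1 from base -33 and an overlapping pair from bases 37 and 42 after the start, which make up a 3-unit form. Hspb1 has 2 elements, from bases -117 and -97, and neither Dnajb1 window has a match, which says only that these letters are not in them. Among the 7 members with a promoter in the table, 6 had an element at 1 start or more and 3 had a 3-unit form. By window, 7 of 12 held an element and 4 of 12 a 3-unit form. In all 32851 promoters of the table, 15.1% held an element of either kind and 0.603% a 3-unit form. CCAAT, read on both strands, was in 7 of the 12 member windows and in 37.4% of all promoters, and TATAAA, also on both strands, in 0 of 12 and in 13.6%. The Hsph1 windows overlap each other, as do the last 2 of Dnaja1, and these matches are a description of sequence, not of binding.

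**Figure D1:**
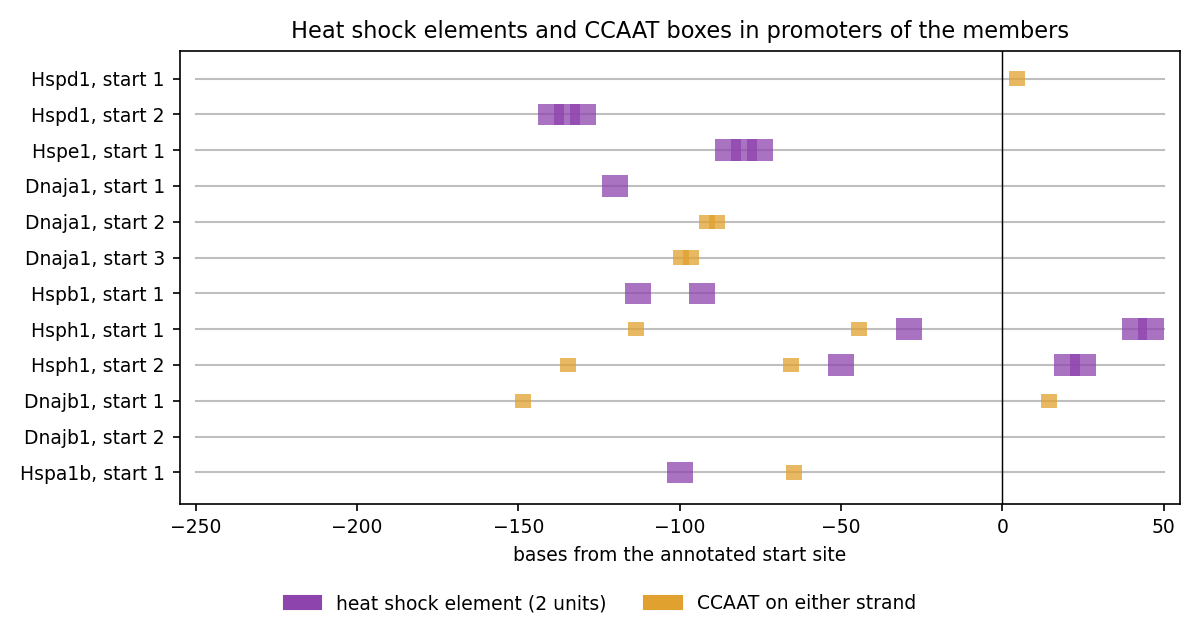
Positions of heat shock elements of 2 units (purple) and CCAAT boxes (yellow) in the 12 promoter windows of the 7 members found in the RefSeq table, in bases from the annotated start at 0. Overlapping elements lie at Hspd1 start 2 and in Hspe1, whose windows hold the same run on opposite strands, and in both Hsph1 windows. The window of Hspd1 start 1 holds no element, and neither Dnajb1 window holds one.

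Hspd1 (gene ID 15510), the HSP60 of the mitochondrial matrix, had log2 signals of 7.82, 9.28, 8.87 and 8.76 in surface 1 to 4, against 9.44, 9.72, 9.75 and 9.86 in crypt base 1 to 4. The groups did not overlap, as in 19.3% of all genes tested, surface 1 was the lowest and the crypt base samples lay close together. In the downward direction alone that share was 9.59%. Means were 8.68 ± 0.62 at the surface and 9.69 ± 0.18 at the crypt base (SD, n = 4 each), a change of -1.01 ± 0.19 (SE, adjusted p = 0.0169). Within pairs 1 to 4 the differences were -1.62, -0.43, -0.88 and -1.09, so every pair had less at the surface, as in 22.1% of all genes tested, and pair 1 differed most. Without the replicate block the adjusted p was 0.0466. The call was lost without replicate 1 (-0.80, adjusted p = 0.0615), replicate 3 (-1.05, 0.0508) or replicate 4 (-0.98, 0.0545), and, with no block, without surface 4 alone (-1.03, 0.0777). No gene of all those tested passed without replicate 1, so that loss is not particular to Hspd1. Genes called lower at the surface were 404 without replicate 3 and 219 without replicate 4, against 963 in the full fit.

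Hsph1 (gene ID 15505), the HSP110 that recharges HSP70, had log2 signals of 7.53, 8.56, 8.62 and 7.79 at the surface, against 8.63, 9.31, 8.84 and 8.31 at the crypt base. The groups overlapped: surface 2 and surface 3 were above crypt base 4. As in that same 22.1% of genes, each surface sample was below the crypt base sample of its own number, by -1.11, -0.75, -0.22 and -0.52 in pairs 1 to 4. The change was -0.65 ± 0.15 (SE), with means of 8.12 ± 0.55 at the surface and 8.77 ± 0.42 at the crypt base (SD, n = 4 each) and an adjusted p of 0.0295. That call was lost with no replicate block (adjusted p = 0.195) and with the replicate as a random block (0.0666). Leaving out replicate 1 (-0.50, adjusted p = 0.100), replicate 2 (-0.61, 0.0737) or replicate 4 (-0.69, 0.0692) also ended it, though without replicate 1 no gene tested passed. The deposited detection p of this probe was under 0.05 on 5 of the 8 arrays, although all 8 signals were far above background.

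Dnajb1 (gene ID 81489), an inducible J protein of the HSP40 class, was steady within each region. Its log2 signals were 10.14, 9.86, 10.12 and 10.02 at the surface, against 9.80, 9.57, 9.96 and 9.78 at the crypt base. All 4 pairs had more at the surface, by 0.34, 0.29, 0.15 and 0.24, as did 21.6% of all genes tested, while the groups overlapped through crypt base 3 and surface 2. The change of 0.26 ± 0.07 (SE, means 10.04 ± 0.13 at the surface and 9.78 ± 0.16 at the crypt base, SD, n = 4 each) did not pass (adjusted p = 0.0562). It passed in 3 of 16 other settings: after cyclic loess (adjusted p = 0.0378), with probes averaged by gene (0.0491) and with an offset of 50 on the linear signal (0.0282). As Dnajb1 has 1 probe, averaging left its own values the same. With no replicate block the adjusted p was 0.151, and over the 16 settings it reached 0.220.

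Hspb1 (gene ID 15507), also known as Hsp25 in the mouse, varied most among the samples. Signals were 7.10, 7.66, 7.95 and 6.70 at the surface, against 8.02, 9.97, 7.56 and 6.71 at the crypt base. Crypt base 2 stood far above the other 7 samples, both samples of replicate 4 were the lowest, and the groups overlapped. The pairs gave differences of -0.92, -2.31, 0.39 and -0.02, so pair 3 ran the other way. The change of -0.72 ± 0.43 (SE, means 7.35 ± 0.56 at the surface and 8.06 ± 1.38 at the crypt base, SD, n = 4 each) did not pass (adjusted p = 0.283), and without replicate 2 it was -0.18.

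**Figure D2:**
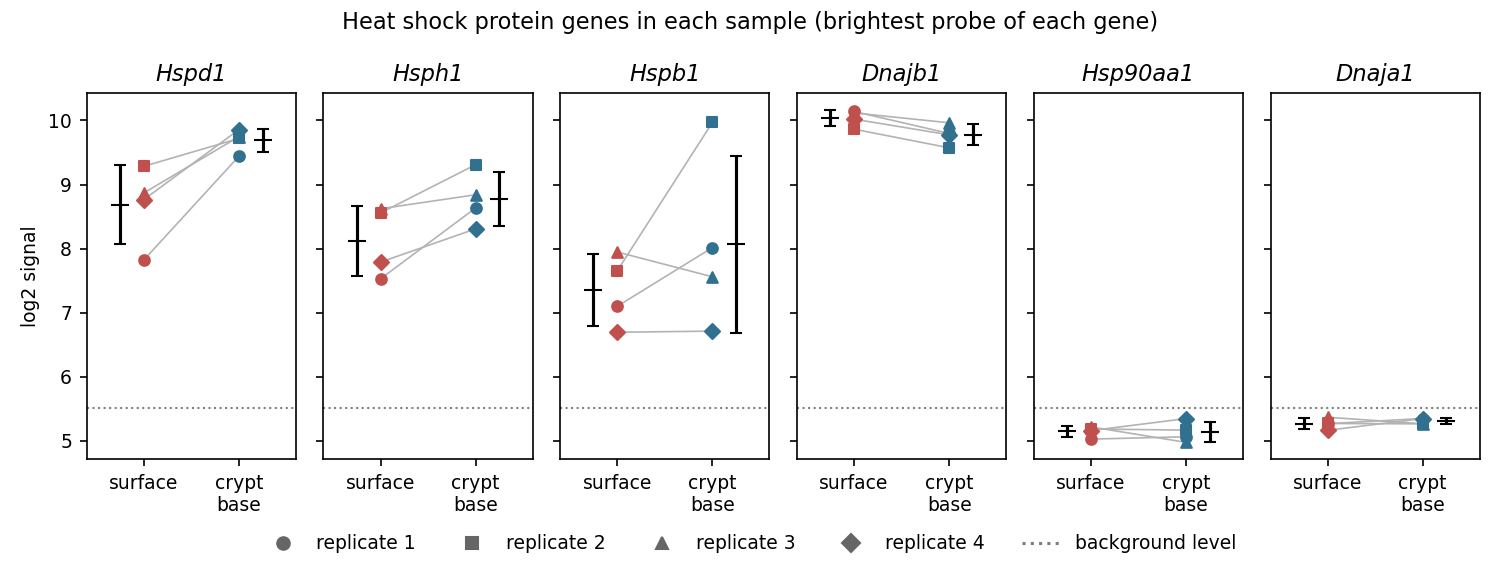
Log2 signal of the brightest probe of 6 heat shock protein genes in each surface sample (red) and crypt base sample (blue), with grey lines joining samples of 1 number, black bars for mean and SD (n = 4) and a dotted line at background. Hspd1 and Hsph1 lie lower at the surface in every pair, Dnajb1 higher in every pair, Hspb1 is spread by crypt base 2 and both Hsp90aa1 and Dnaja1 lie below background.

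Smooth muscle markers moved with Hspb1. The linear signal summed over the 6 smooth muscle markers tested, of 9 listed, was 5893, 9696, 11546 and 1972 in surface 1 to 4, against 13654, 24540, 9159 and 6315 in crypt base 1 to 4. Acta2 and Actg2 make up most of this linear sum. Their mean log2 signals at the crypt base were 12.59 and 12.20, against 8.54 for Myh11, the next brightest there. Hspb1 and this sum put the 8 samples in the same order except that surface 1 and crypt base 4 changed places. In all 4 pairs the sum and Hspb1 differed in the same direction, pair 3 included, where both were higher at the surface. In pair 4, however, Hspb1 differed by only -0.02, beside sums of 1972 and 6315. Hsph1 and Hspd1 each had the sign of the sum in 3 of 4 pairs, and Hsph1 was also highest in crypt base 2. In pair 3, with more muscle signal at the surface, Hsph1 was lower at the surface by -0.22 and Hspd1 by -0.88. Hspd1 was highest in crypt base 4, the crypt base sample with the lowest muscle sum. Of the 6 muscle markers, 0 passed the test between the regions in limma, 4 were lower at the surface and 0 higher at an unadjusted p under 0.05, and their median change was -0.83. The part of muscle RNA in the values of Hspb1, Hsph1 and Hspd1 was not tested.

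**Figure D3:**
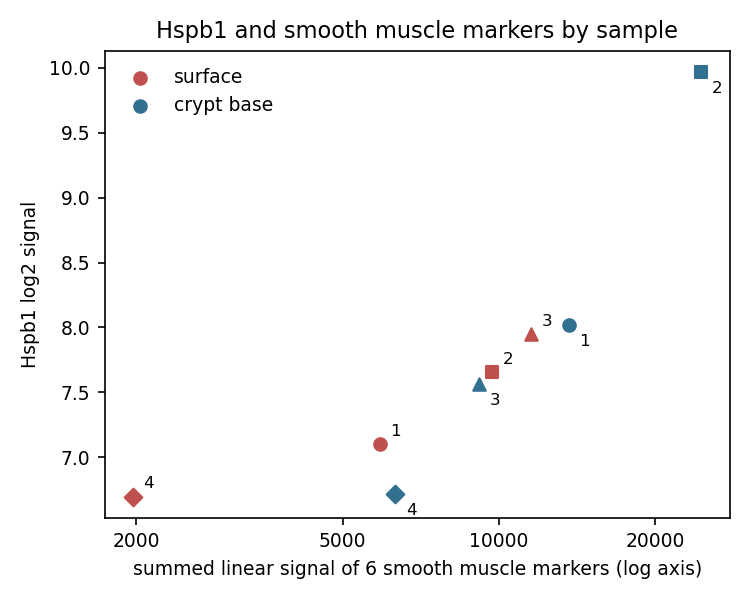
Log2 signal of Hspb1 against the summed linear signal of 6 smooth muscle markers (log axis) in 4 surface samples (red) and 4 crypt base samples (blue), numbered by replicate. Crypt base 2 is highest on both axes, with 9.97 and 24540, and surface 4 lowest on both, with 6.70 and 1972.

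The 2 other members with probes could not be compared. Hsp90aa1 (gene ID 15519), the inducible cytosolic HSP90, had 2 probes, and across all 8 arrays their log2 signals lay between 4.65 and 5.35, under the background level of 5.52. Dnaja1 (gene ID 15502), a J protein with a lipid anchor, had 3 probes with signals from 4.18 to 5.58, of which a single value, in crypt base 4, exceeded background. These probes show no level above background and do not show that the genes are silent. Hspd1 and Hspb1 each had a further probe that was below background on every array, with signals from 4.90 to 5.18 and from 4.98 to 5.27, so the result of each tested member rests on 1 probe.

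Across the 8 samples Hspd1 and Hsph1 varied together (Pearson r = 0.779), as did Hspb1 and Hsph1 (0.802), whereas Hspb1 with Hspd1 had r = 0.341. Dnajb1 ran opposite to all of them, with r from -0.764 to -0.619. These coefficients are descriptions over 8 samples that share mice and the 2 regions. The genes closest to the mean of the 4 members over the same 8 samples were Degs1, a ceramide desaturase gene (r = 0.985), the dystrobrevin gene Dtna (0.980), Armcx1 (0.979), the membrane protein gene Cd47 (0.973) and the TEAD factor gene Tead2 (0.971). At the opposite end stood Dcaf11 (-0.972), the integrin gene Itga3 (-0.967) and the kinase gene Taok3 (-0.966). All were picked as the extremes of r among the genes tested, over only 8 samples. Degs1, Dtna and Armcx1 did not pass the test between the regions. Values were centred and not scaled, so Hspb1, which varied most, weighs most in the mean.

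Most chaperone genes outside the 10 members did not pass the test. Of 100 genes on 7 lists, 94 had a named probe and 70 were tested; 5 rose, 12 fell and 53 had no call. The called shares were 7.14% and 17.1%, beside the 12.1% and 10.1% of all genes tested. The median change of the 70 was -0.03, near the -0.01 of all genes. With no replicate block 1 rose and 7 fell. All 17 calls were lost without replicate 1, where no gene of all those tested passed. Without replicate 3 the counts were 2 and 4, and without replicate 4 they were 1 and 1.

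**Figure D4:**
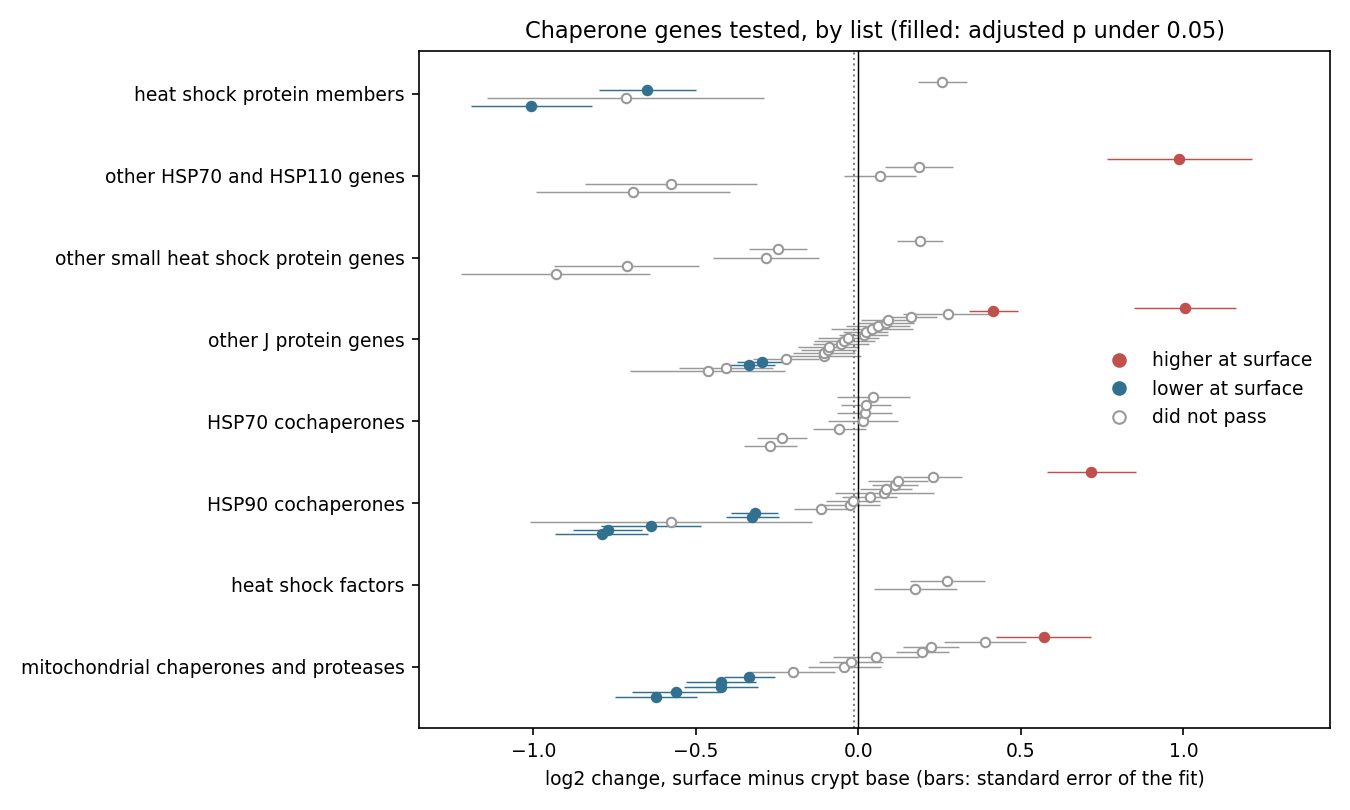
Surface minus crypt base difference in log2 signal (bars, SE) for every tested chaperone gene by list, filled where the adjusted p was under 0.05 (red higher, blue lower at the surface) and open where it was not. The dotted line is the median of all genes tested, and the filled blue points lie mainly among the HSP90 cochaperones and the mitochondrial chaperones.

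Among the cochaperones of HSP90, 1 rose and 5 fell of 16 tested, beside 12.1% and 10.1% of all genes tested. Ppid, a cyclophilin that binds the HSP90 tail, had log2 signals of 8.42, 8.99, 8.91 and 8.40 at the surface, against 9.64, 9.39, 9.53 and 9.30 at the crypt base, with no overlap and a change of -0.79 ± 0.14 (adjusted p = 0.0163). Fkbp4, an immunophilin of steroid receptor complexes, had 9.47, 9.88, 9.84 and 9.90 at the surface, against 10.47, 10.37, 10.53 and 10.80 at the crypt base (-0.77 ± 0.11, adjusted p = 0.00931), while its other probe changed by -0.06. Both stood lower in every surface sample than in any crypt base sample, as did 9.59% of all genes tested. Aarsd1 changed by -0.64 ± 0.15. Stip1, which links HSP70 to HSP90, and Chordc1, which binds HSP90, were named after their values were seen and changed by -0.32 ± 0.07 and -0.33 ± 0.08. With the block left out, Stip1 (adjusted p = 0.141) and Chordc1 (0.0706) no longer passed. The exception was Fkbp5, an immunophilin gene induced by glucocorticoids, with signals of 7.99, 7.31, 7.76 and 8.77 at the surface, against 6.94, 6.95, 7.26 and 7.81 at the crypt base (0.72 ± 0.14, adjusted p = 0.0189, 0.177 with no replicate block and 0.0543 with a random one). The 10 that did not pass include Ahsa1, which drives the HSP90 ATPase (-0.02), Ptges3, or p23 (0.08), and the kinase adaptor Cdc37 (-0.12).

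Of 13 mitochondrial chaperones and proteases tested, 1 rose and 5 fell, beside 12.1% and 10.1% of all genes tested. Trap1, the HSP90 of mitochondria, had log2 signals of 8.40, 8.40, 8.40 and 8.63 at the surface, against 9.37, 8.67, 9.13 and 9.14 at the crypt base, with no overlap and a change of -0.62 ± 0.13 (adjusted p = 0.0214). In that direction, groups did not overlap for 9.59% of all genes tested. Clpp, the matrix protease, changed by -0.56 ± 0.13 and Dnlz, a partner of mitochondrial HSP70, by -0.42 ± 0.11. Other probes of Dnlz ran from -0.34 to 0.02. Named after their values were seen, Hspa9, the HSP70 that works beside Hspd1, changed by -0.33 ± 0.08 and the mitochondrial J protein gene Dnaja3 by -0.42 ± 0.11, with -0.06 for its other probe. Hspa9 (adjusted p = 0.173), Dnaja3 (0.0743) and Dnlz (0.0550) did not pass with no replicate block, nor did Hspa9 with a random one (0.0540). Afg3l2, a protease of the inner membrane, rose by 0.57 ± 0.15 (adjusted p = 0.0411), and its other probe had 0.28. It too was lost with no replicate block (adjusted p = 0.0589). Lonp1 and Clpx, a protease and an unfoldase of the matrix, had changes of -0.20 and 0.05 and did not pass.

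In the J protein list 2 rose and 2 fell of 22 tested, or 9.09% each way, near the 12.1% and 10.1% of all genes tested. Dnajc5, the cysteine string protein of secretory vesicles, had signals of 10.06, 9.77, 10.56 and 10.45 at the surface, against 8.88, 9.25, 9.12 and 9.57 at the crypt base, a change of 1.004 ± 0.156 (2.01-fold, adjusted p = 0.0116), with 0.31 and 0.64 for its other probes. No surface sample was as low as any crypt base sample, as in 9.72% of all genes tested. Dnaja2, a cytosolic partner of HSP70, rose by 0.41 ± 0.07, but had an adjusted p of 0.238 with no replicate block and 0.0767 with a random one. Dnajc8, linked to splicing, and Dnajc2, which works at the ribosome, changed by -0.34 ± 0.08 and -0.30 ± 0.08, and Dnajc2 had an adjusted p of 0.176 when unpaired and 0.0567 with a random block. Dnajc7, which binds both HSP70 and HSP90, had -0.22 ± 0.10 (adjusted p = 0.171).

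Other HSP70 genes gave 1 rise and 0 falls of 5 tested, beside 12.1% and 10.1% of all genes tested. Hspa12a, a distant relative of HSP70, had 7.71, 7.20, 7.42 and 8.72 at the surface, against 6.39, 6.96, 6.63 and 7.12 at the crypt base (0.99 ± 0.22, 1.98-fold, adjusted p = 0.0283, and 0.0788 with no replicate block). Surface 4 was the highest and the groups did not overlap, as in 9.72% of all genes tested in that direction. Hspa2, best known from the testis, had -0.58 ± 0.26 and Hspa4, an HSP110 relative, 0.19 ± 0.10, and neither passed. Hspa4l had the lowest change of this list, -0.69 ± 0.30, with -1.92 in pair 4, and did not pass (adjusted p = 0.151). Both probes of the heat-inducible Hspa1a stayed at or under 5.46, below background. At an unadjusted p under 0.05, the counts over all 70 other chaperone genes were 9 higher and 18 lower, beside 18.2% and 18.3% of all genes tested.

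Small heat shock protein genes had 0 calls among 5 tested in limma, with 1 higher and 3 lower at an unadjusted p under 0.05. Hspb8 had signals of 8.11, 8.56, 9.19 and 7.17 at the surface, against 9.37, 10.12, 8.94 and 8.33 at the crypt base (-0.93 ± 0.29, adjusted p = 0.0687). Cryab, the alpha-B crystallin gene, abundant in muscle, had 6.54, 7.04, 7.18 and 6.29 at the surface, against 7.29, 8.58, 7.35 and 6.67 at the crypt base (-0.71 ± 0.22, adjusted p = 0.0690). Hspb8, Cryab and Hspa2 were, like Hspb1, highest in crypt base 2, the sample with the highest smooth muscle sum, and the pairs had the sign of that sum in 4 of 4 for Hspb8 and Hspa2 and in 3 of 4 for Cryab. The part of muscle RNA in these values was not tested.

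HSP70 cochaperones had 0 calls among 7 tested in limma, with 0 higher and 2 lower at an unadjusted p under 0.05, and changes from -0.27 to 0.05. The largest was that of Bag4 (-0.27 ± 0.08, adjusted p = 0.0625), and Bag3, an Hsf1 target, had -0.23 ± 0.08 (adjusted p = 0.0789). Bag1, St13 and Stub1 had changes of 0.01, 0.02 and 0.02. Of the heat shock factors, Hsf1 had no named probe, and Hsf2 (0.18 ± 0.13) and the factor-binding gene Hsbp1 (0.27 ± 0.12, adjusted p = 0.148) did not pass. The other probe of Hsf2 ran the opposite way, with -0.24. Immediate early genes are induced within minutes of many stimuli. In the same samples 8 of 11 tested rose and 0 fell, beside 12.1% and 10.1% of all genes tested. Their median change was 0.80, led by Fos (1.56 ± 0.25), Atf3 (1.25 ± 0.14) and Dusp1 (1.11), whose groups overlapped. These calls are from the paired fit, and no gene passed without replicate 1. The inducible member Dnajb1 was higher at the surface in all 4 pairs, as were 21.6% of all genes tested, without passing. Hsph1 and Bag3 were lower at the surface in all 4 pairs, as were 22.1% of all genes tested. The difference between the immediate early list and the heat shock genes was not tested.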

How the data were processed

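RNA was amplified before labelling, per the labels' protocols. The deposited log2 values cover 46632 probes on 8 arrays. They were normalized by a step not given in the sources used here. The submitters' processing notes list GenomeStudio, and 99.0% of ranks agreed within 0.01 across arrays. Detection p-values come from another deposited table, beside signals named only by number, per the file headers. Its 8 signal columns match no sample label and were not used. The deposited detection p-values beside them carry no sample name either and served only as a number of arrays with p under 0.05. Background, a log2 signal of 5.52, is the level exceeded as often as detection p was under 0.05.

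Gene names came from the platform annotation, updated through the RefSeq table of GRCm38.p6. Each gene took its probe with the highest mean, and genes detected on at least 4 arrays were tested with limma 3.58.1 in R 4.3.3: lmFit with replicate number as a block term, eBayes, two-sided, Benjamini-Hochberg over 9494 genes. Changes are surface minus crypt base on the log2 scale. The fit was tested on simulated data with known changes and a replicate block built in, so that run does not test the pairing. Members and lists were chosen with earlier results of these data known. The genes named are all members, up to 3 of the largest passing changes per list and direction, and the largest change of a list with none. Chaperone genes named beside these, all without a call unless stated, were added for their roles after their values were seen. The labels do not tie the number to the mouse. Deviations of same-numbered samples correlated across genes at 0.45, 0.39, -0.04 and 0.48 for numbers 1 to 4, so pairing by number is an assumption. Fits without it are given where they end the call of a member or of another chaperone gene. For marker and immediate early genes they are not given. The number of arrays limits the precision.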

Additional observations from a re-analysis of the deposited data

How the results depend on the processing

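All alternatives below were chosen with earlier results of these data known. With no replicate block, 688 genes were higher and 579 lower at the surface over all genes tested, 1 member fell and 1 other chaperone gene rose while 7 fell, 7 of the 17 called in the paired fit among them. Without the block and without surface replicate 4, the counts were 532 and 399 genes, 0 members lower (1 at an unadjusted p under 0.05 in limma), and 1 and 3 other chaperones. With a random replicate block, 1 member fell, Hspd1, and of the 17 other chaperone calls 4 were lost, those of Dnaja2 (adjusted p = 0.0767), Dnajc2 (0.0567), Fkbp5 (0.0543) and Hspa9 (0.0540), and with probes detected on all arrays members lower were also 1, since Hsph1 was then not tested. After cyclic loess, with probes averaged by gene and with the offset of 50, 1 member rose, which was Dnajb1. Leaving out 1 replicate gave 0 to 1157 genes higher and 0 to 1146 lower, 0 to 0 members higher and 0 to 1 lower, and 0 to 6 other chaperones higher and 0 to 10 lower. The zeros over all genes and over the other chaperones are those without replicate 1, where 1363 and 1149 genes had an unadjusted p under 0.05 in limma. Members lower were also 0 without replicate 4, and 2 had an unadjusted p under 0.05 in both of these fits. Every setting run kept the sign of each tested member. The change ranged from -1.20 to -0.80 for Hspd1, from -0.79 to -0.50 for Hsph1, from -1.08 to -0.18 for Hspb1 and from 0.23 to 0.29 for Dnajb1. Reading only the bases before the start, 12.8% of promoters held an element, against 15.1% in the whole window. With 4 arrays a group, a change that did not pass is not shown to be absent.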
